A study of Mus musculus with 4 samples.

Results

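The genes described here make cholesterol and fatty acids or govern how much of them is made. They are 29 genes named for this purpose, from the first steps of the mevalonate route to the desaturases of fatty acids, and the list does not hold every enzyme of these routes. Each gene was read through array probes whose RefSeq transcript carries its symbol, and the brightest probe stood for the gene. All 29 had a probe, among 20887 genes with a symbol on the array. Of these, 28 were well above background on all 4 arrays, within a set of 13034 genes compared. Scd1, a stearoyl-CoA desaturase, was not well above background on any array and is not compared.

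The measurements come from mouse LSK cells, sorted bone marrow cells that lack lineage markers and carry c-Kit and Sca-1, the fraction in which hematopoietic stem cells and early progenitors are found. There were 4 groups, all on the C57BL/6 strain, with 1 single-colour array each. Transplanted Sf3b1+/- cells and transplanted wild-type cells were CD45.2+ donor cells recovered from lethally irradiated CD45.1+ recipients 9 months after total bone marrow of the same genotype had been given. Native Sf3b1+/- cells and native wild-type cells were taken directly from mice aged 20 weeks. Sf3b1 encodes the largest subunit of the SF3b splicing complex, and heterozygous mice were used because homozygous null embryos die before implantation, per the design text. The design text gives 4 mice for the native and 5 recipients for the transplanted cells, and the sources used here do not say how many mice gave RNA for each array. Transplanted and native cells differ in age, host and irradiation at once, and these cannot be told apart.

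Cells build cholesterol from acetyl-CoA by the mevalonate route, which leads through isoprenoid units to squalene, then to lanosterol, and by removal of methyl groups and shifts of double bonds to cholesterol. The genes of this route are switched on together by SREBP-2, the product of Srebf2, a transcription factor held in the endoplasmic reticulum with its escort Scap while sterols are plentiful. Insig proteins retain the Scap and SREBP pair there, and Insig1 is itself a target of SREBP. Fatty acids are made from the same acetyl-CoA by acetyl-CoA carboxylase and fatty acid synthase, and SREBP-1c, a product of Srebf1, is known for driving those genes in liver. On promoters, SREBP proteins bind sterol response elements, commonly beside CCAAT boxes, which bind the factor NF-Y.

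The promoters below belong to the 4 genes that were at least 1.5-fold lower in native Sf3b1+/- cells, and to Nsdhl, whose product works in the same enzyme group as those of Msmo1 and Hsd17b7 and which was not lower. They are RefSeq sequences of build GRCm38.p6, 300 bases around each start site, 5′ to 3′ on the gene's strand. Capitals mark the sterol response motif TCACNCCAC and the CCAAT box, searched on both strands, and in the promoters shown no match of one overlaps the other. Hmgcs1 lies at chr13:119690101-119690400, plus strand; Cyp51 at chr5:4104648-4104947, minus strand. Msmo1 lies at chr8:64733529-64733828, minus strand. Hsd17b7 lies at chr1:169969156-169969455, minus strand, and Nsdhl at chrX:72918271-72918570, plus strand.
Hmgcs1: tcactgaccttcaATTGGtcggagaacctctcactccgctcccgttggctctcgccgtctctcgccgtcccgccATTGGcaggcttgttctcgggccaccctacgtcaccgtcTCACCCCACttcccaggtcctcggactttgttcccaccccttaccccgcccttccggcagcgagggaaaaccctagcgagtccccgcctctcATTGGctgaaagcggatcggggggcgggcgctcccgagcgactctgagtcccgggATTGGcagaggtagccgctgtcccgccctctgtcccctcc
Cyp51: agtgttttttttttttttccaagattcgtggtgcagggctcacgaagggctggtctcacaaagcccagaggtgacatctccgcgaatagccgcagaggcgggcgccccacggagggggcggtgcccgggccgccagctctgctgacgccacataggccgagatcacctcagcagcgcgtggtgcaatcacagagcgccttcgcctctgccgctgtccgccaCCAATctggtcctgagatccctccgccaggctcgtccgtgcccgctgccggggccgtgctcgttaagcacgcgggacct
Msmo1: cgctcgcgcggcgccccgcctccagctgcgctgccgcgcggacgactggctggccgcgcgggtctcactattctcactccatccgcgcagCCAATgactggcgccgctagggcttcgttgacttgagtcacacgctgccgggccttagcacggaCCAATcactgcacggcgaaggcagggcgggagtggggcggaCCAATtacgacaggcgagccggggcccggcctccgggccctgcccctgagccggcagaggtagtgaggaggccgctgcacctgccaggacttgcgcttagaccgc
Hsd17b7: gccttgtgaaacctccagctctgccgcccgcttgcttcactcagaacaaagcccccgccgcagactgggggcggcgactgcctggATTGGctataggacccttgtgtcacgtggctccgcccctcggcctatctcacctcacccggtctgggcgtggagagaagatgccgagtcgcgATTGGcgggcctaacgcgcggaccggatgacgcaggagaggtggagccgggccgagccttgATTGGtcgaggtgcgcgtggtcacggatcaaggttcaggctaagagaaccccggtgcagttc
Nsdhl: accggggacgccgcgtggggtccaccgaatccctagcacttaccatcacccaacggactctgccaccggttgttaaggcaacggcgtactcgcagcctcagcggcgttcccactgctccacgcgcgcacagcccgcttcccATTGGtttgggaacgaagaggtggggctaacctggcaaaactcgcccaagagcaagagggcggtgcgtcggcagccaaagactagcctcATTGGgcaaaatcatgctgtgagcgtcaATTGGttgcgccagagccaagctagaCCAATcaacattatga
The Hmgcs1 promoter held the sterol response motif once, together with 4 CCAAT boxes. The other promoters shown had no match to this exact motif and held CCAAT boxes, 1 in Cyp51, 3 in Msmo1, 3 in Hsd17b7 and 4 in Nsdhl. Other forms of the sterol response element were not searched. The promoter table held 31 promoters of 23 of the 29 genes. A CCAAT box was present in 20 of these 31 promoters (64.5%), against 37.4% of all 32851 promoters in the table, and the sterol response motif in 1 (3.23%), against 1.24%. A match of letters is a description of the window and not a binding site.

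On each array 47.7% to 51.5% of spots were well above background, and no spot was saturated. Signals are processed intensities scaled so that the 75th percentile of detected probes is the same on each array, given in the scanner's units, and differences are on the log2 scale. Replicate spots of a probe on 1 array had a median SD of 0.0646 to 0.0756, which measures the array surface and not the spread between mice. Each group has 1 array, so the differences within native or within transplanted cells have no replicate check, and the number of arrays limits the precision. When arrays were scaled to spike-in spots instead, the all-gene median stood 0.22 higher in native Sf3b1+/- than native wild-type cells and 0.58 higher in transplanted Sf3b1+/- than transplanted wild-type cells, so every direction below is relative to the bulk of genes on the array. Sf3b1 itself read 328 units in native Sf3b1+/- against 436 in native wild-type cells (75.4%), and 253 units in transplanted Sf3b1+/- against 273 in transplanted wild-type cells (92.8%). The transplanted difference was small, -0.11 on the log2 scale against -0.41 in native cells. Spike-in scaling turned it to 0.47 and brought the native one to -0.19. All 8 LSK marker genes, among them Kit and Ly6a, were well above background on all 4 arrays.

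The first comparison sets native Sf3b1+/- against native wild-type LSK cells. Of the 18 enzymes of cholesterol synthesis compared, 16 lay below 0 in native Sf3b1+/- cells, against 50.3% of all genes. With spike-in scaling 11 lay below 0, where the median of all compared genes was 0.22. Msmo1, Hsd17b7, Cyp51 and Hmgcs1 were 1.93-fold, 1.71-fold, 1.70-fold and 1.55-fold lower, and with spike-in scaling they still lay at -0.73, -0.55, -0.55 and -0.41. These 4 of 28 genes were at least 1.5-fold lower, where 4.7% of all compared genes were, and none was at least 1.5-fold higher, where 3.25% of all were. The count of 4 was 2 with normexp background correction (1.63% of all genes), 1 with spike-in scaling (2.45%) and 3 with the median over the probes of a gene (4.94%). The median of the 28 genes was -0.20 against -0.0018 for all compared genes, and with spike-in scaling it was 0.017 against 0.22. Below 0 lay 21 of the 28, against 50.3% of all genes, and with spike-in scaling 14 did. At a lower bar of 1.2-fold, applied to this count after the values were seen, 12 of 28 were lower against 14.9% of all genes, and 1, Fasn, was higher against 13.7%.

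Of the 7 enzymes up to farnesyl pyrophosphate, all lay below 0 in native Sf3b1+/- cells, against 50.3% of all genes. With spike-in scaling 4 did, where the median of all compared genes was 0.22. Hmgcs1, which makes HMG-CoA and opens the committed route, read 4113 units in native Sf3b1+/- cells against 6378 in native wild-type cells. In transplanted Sf3b1+/- cells it read 3494 units against 3780 in transplanted wild-type cells. The native wild-type array thus stood above the other 3. Fdps, which makes farnesyl pyrophosphate, read 3441 units in native Sf3b1+/- against 4685 in native wild-type cells, and 5321 units in transplanted Sf3b1+/- against 5345 in transplanted wild-type cells. The low array here was native Sf3b1+/-, and the transplanted difference was -0.0067 on the log2 scale. Mvd, which forms isopentenyl pyrophosphate, read 164 units in native Sf3b1+/- against 222 in native wild-type cells, and 279 units in transplanted Sf3b1+/- against 229 in transplanted wild-type cells. Its direction therefore differed between the settings.

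Idi1, the isomerase of the isoprenoid units, was lower in Sf3b1+/- cells by 0.35 on the log2 scale in native cells, with 1891 units against 2401 in wild type. In transplanted cells it read 2290 units in Sf3b1+/- against 2719 in wild type. The kinases Mvk and Pmvk, which phosphorylate mevalonate in turn, lay at -0.016 and 0.039 in transplanted cells and at -0.15 and -0.10 in native cells. Acat2, a cytosolic thiolase at the head of the route, lay at -0.11 in transplanted and -0.021 in native cells. These differences for Mvk, Pmvk and Acat2 were small beside those of Hmgcs1, Fdps and Mvd in native cells.

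The enzymes that join farnesyl units and close the ring, Fdft1, Sqle and Lss, were above 0 in transplanted and below 0 in native Sf3b1+/- cells. Of all genes 49.5% lay below 0 in transplanted and 50.3% in native cells. With spike-in scaling 2 of the 3 enzymes stayed below 0 in native cells. Lss, which closes squalene epoxide to lanosterol, read 92.5 units in native Sf3b1+/- against 112 in native wild-type cells. In transplanted Sf3b1+/- cells it read 166 units against 110 in transplanted wild-type cells, a 1.51-fold difference. The transplanted Sf3b1+/- array was the high one, with the other 3 close together. Fdft1, squalene synthase, read 358 units in native Sf3b1+/- against 380 in native wild-type cells, and 507 units in transplanted Sf3b1+/- against 369 in transplanted wild-type cells. Sqle, squalene epoxidase, lay at 0.13 in transplanted and -0.26 in native cells. After normexp background correction the transplanted differences of Fdft1 and Lss were 0.40 and 0.24.

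Between lanosterol and cholesterol, the first demethylation steps held 3 of the 4 genes furthest apart in native cells. Cyp51, the lanosterol 14-alpha demethylase, read 297 units in native Sf3b1+/- against 507 in native wild-type cells. In transplanted Sf3b1+/- cells it read 378 units against 399 in transplanted wild-type cells. The native arrays were thus the lowest and the highest of the 4. Msmo1, the sterol C-4 methyl oxidase, read 2095 units in native Sf3b1+/- against 4041 in native wild-type cells, the largest log2 difference among the 28 genes. In transplanted Sf3b1+/- cells it read 3015 units against 3373 in transplanted wild-type cells. Hsd17b7, the keto reductase of the same C-4 demethylation, read 99.4 units in native Sf3b1+/- against 170 in native wild-type cells, and 129 units in transplanted Sf3b1+/- against 145 in transplanted wild-type cells. A second Hsd17b7 probe gave native differences of the same sign but smaller, -0.16 against -0.77 for the brighter probe, so the median over probes was -0.46, and in transplanted cells it gave 0.20.

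Nsdhl, the dehydrogenase between Msmo1 and Hsd17b7 in C-4 demethylation, did not share this pattern. It read 176 units in native Sf3b1+/- against 170 in native wild-type cells, and 225 units in transplanted Sf3b1+/- against 151 in transplanted wild-type cells. Its second probe gave -0.46 where the first gave 0.57 in transplanted cells, so the direction there is uncertain. Among the remaining enzymes, Tm7sf2, a sterol C-14 reductase, was lower in Sf3b1+/- cells in both settings, with 514 units against 674 in native wild-type cells and 483 units against 644 in transplanted wild-type cells, although spike-in scaling turned the transplanted difference to 0.16 and a second, dimmer probe gave -0.052 there. Ebp, the sterol isomerase, lay at -0.21 in transplanted and -0.043 in native cells. Sc5d, the C-5 desaturase, lay at -0.14 in transplanted and -0.24 in native cells. Dhcr7, which catalyses a last reduction to cholesterol, was above 0 in both settings, at 0.41 in transplanted and 0.24 in native cells.

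**Figure D1:**
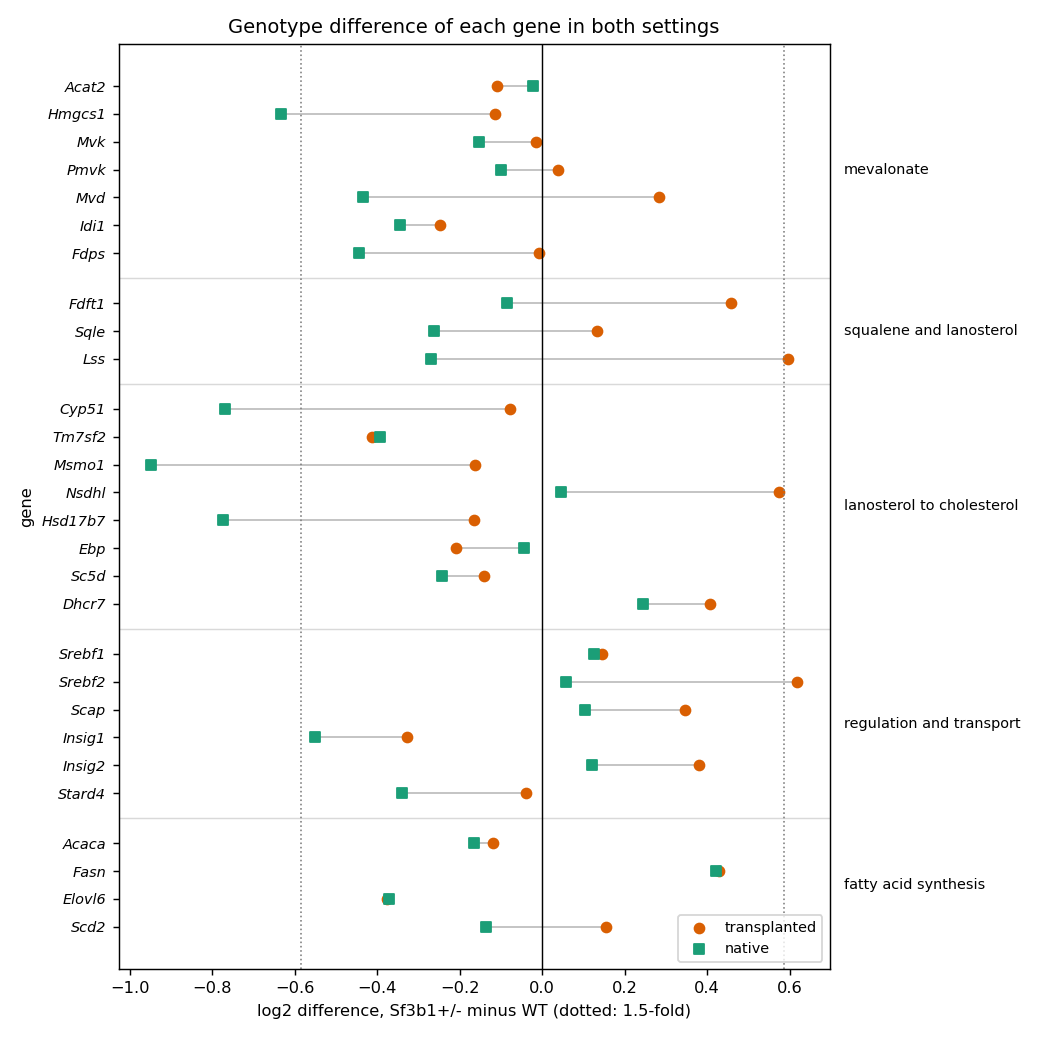
Genotype difference of the 28 compared genes in log2 units (horizontal axis, Sf3b1+/- minus WT), with genes down the page by role, circles for transplanted and squares for native cells, and 1 array per group without error bars. Msmo1, Hsd17b7, Cyp51 and Hmgcs1 are the squares left of the dotted 1.5-fold line, and their circles lie between -0.17 and -0.079.

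Of the regulators and carriers, 4 of 6 lay above 0 in native Sf3b1+/- cells, and Insig1 and Stard4 lay below, where 50.3% of all genes did. With normexp 4 of the 6 lay below 0. Insig1 read 373 units in native Sf3b1+/- against 545 in native wild-type cells, a 1.46-fold difference. In transplanted Sf3b1+/- cells it read 506 units against 635 in transplanted wild-type cells. Both Sf3b1+/- arrays lay below their wild-type partners, and spike-in scaling turned the transplanted difference to 0.25. Srebf2 read 420 units in native Sf3b1+/- against 404 in native wild-type cells, and 640 units in transplanted Sf3b1+/- against 417 in transplanted wild-type cells. Transplanted Sf3b1+/- cells alone were high, 1.54-fold over transplanted wild type, and a second probe gave 0.73 on the log2 scale, while normexp gave 0.54 for the first.

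Scap, the escort of SREBP, read 4988 units in native Sf3b1+/- against 4641 in native wild-type cells, and 4273 units in transplanted Sf3b1+/- against 3362 in transplanted wild-type cells. Srebf1 stayed between 102 and 125 units on all 4 arrays, with differences of 0.14 in transplanted and 0.13 in native cells, which normexp turned to -0.14 and -0.048. Insig2, which also retains Scap, lay at 0.38 in transplanted and 0.12 in native cells. Stard4, a carrier of cholesterol between membranes, read 1522 units in native Sf3b1+/- against 1928 in native wild-type cells, with a transplanted difference of -0.040. Its probes gave -0.34 and -0.37 in native cells.

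Of the 4 fatty acid synthesis genes compared, 3 lay below 0 in native Sf3b1+/- cells, against 50.3% of all genes. With spike-in scaling 1 did, where the median of all compared genes was 0.22. Fasn, fatty acid synthase, was higher in Sf3b1+/- cells in both settings. It read 151 units in native Sf3b1+/- against 113 in native wild-type cells, and 155 units in transplanted Sf3b1+/- against 115 in transplanted wild-type cells. The Sf3b1+/- arrays lay together above the wild-type arrays, by 0.43 in transplanted and 0.42 in native cells, or 0.17 and 0.22 after normexp. Elovl6, which extends palmitate to stearate, had the reverse order. It read 1304 units in native Sf3b1+/- against 1688 in native wild-type cells, and 1076 units in transplanted Sf3b1+/- against 1397 in transplanted wild-type cells, with spike-in scaling turning the transplanted difference to 0.20.

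Acaca, the acetyl-CoA carboxylase that makes malonyl-CoA, read 2915 units in native Sf3b1+/- against 3271 in native wild-type cells, and 2295 units in transplanted Sf3b1+/- against 2491 in transplanted wild-type cells. Scd2, a stearoyl-CoA desaturase, lay at 0.15 in transplanted and -0.14 in native cells. The probe of Scd1 gave at most 19.3 units, which is not well above background.

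**Figure D2:**
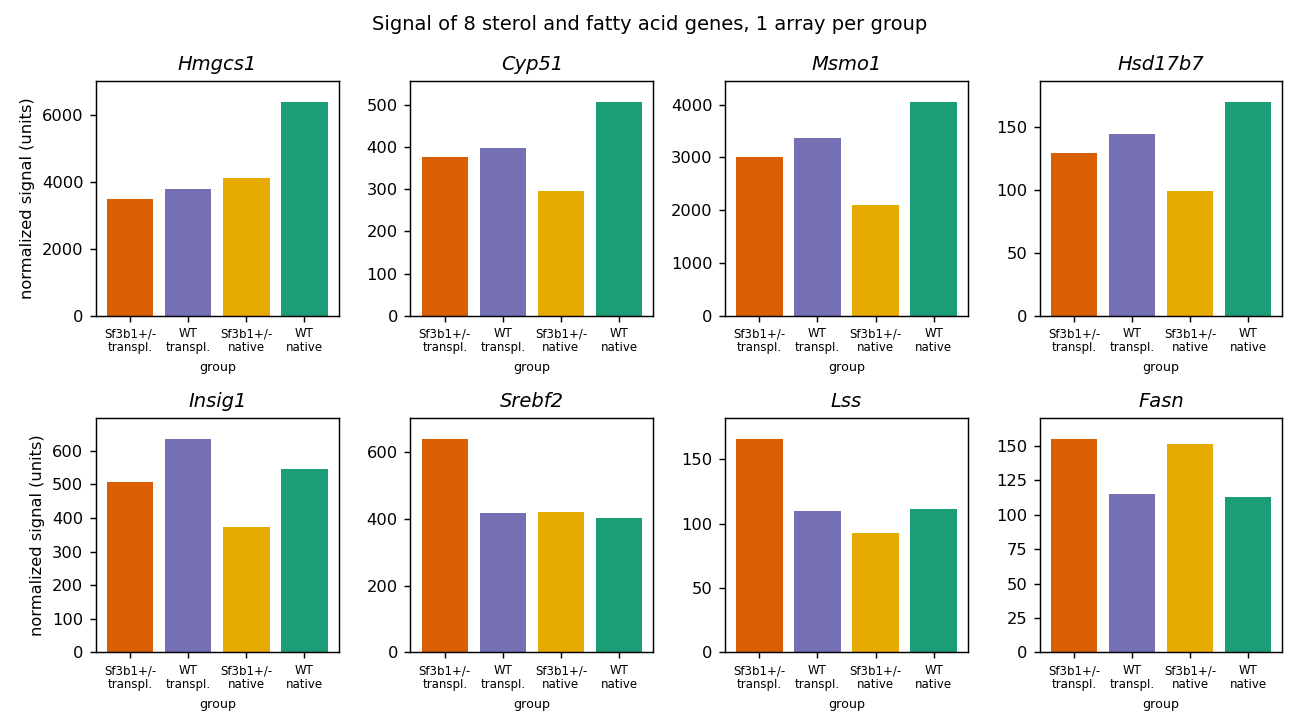
Normalized signal (vertical axis, scanner units from 0) of 8 genes on the 4 arrays, 1 bar per group without error bars because each group has 1 array. Cyp51, Msmo1 and Hsd17b7 are highest in native WT and lowest in native Sf3b1+/- cells, whereas Srebf2 and Lss are highest in transplanted Sf3b1+/- cells and Fasn is higher in both Sf3b1+/- groups.

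The second comparison asks whether the genotype difference is also seen in donor cells after transplantation. In transplanted cells the median of the 28 genes was -0.011 against 0.0054 for all compared genes (0.56 against 0.58 with spike-in scaling). Srebf2 and Lss were at least 1.5-fold higher in Sf3b1+/- cells, 2 of 28 (7.14%), where 7.79% of all genes were. The count was 0 with normexp (3.01% of all genes) and 13 with spike-in scaling (49.6%). None was at least 1.5-fold lower, where 6.43% of all genes were. Below 0 lay 15 of 28, against 49.5% of all genes, and with spike-in scaling 0 did. Msmo1, Hsd17b7, Cyp51 and Hmgcs1 lay at -0.16, -0.17, -0.079 and -0.11, and with spike-in scaling at 0.41, 0.41, 0.50 and 0.46.

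Set against each other, the settings differed in the same direction for most of the genes. The genotype difference in transplanted cells minus that in native cells was above 0 for 24 of 28 and below 0 for 4, where 49.5% of all genes were below 0, with a median of 0.25 against 0.0046 for all genes. At least 1.5-fold above 0 were 5 of 28 (17.9%), where 8.12% of all genes were. The 5 were Lss at 0.87, Msmo1 at 0.79, Mvd at 0.72, Cyp51 at 0.69 and Hsd17b7 at 0.61. With normexp the count was 2, where 3.26% of all genes were. None was as far below 0, where 5.39% of all genes were. With 4 arrays and both main effects in the model, this contrast is itself the 1 residual degree of freedom, so it carries no test. By group, native wild-type cells held the highest value of 13 of the 28 genes, against 19.6% of all genes, and native Sf3b1+/- cells the lowest value of 12, against 25.5%.

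**Figure D3:**
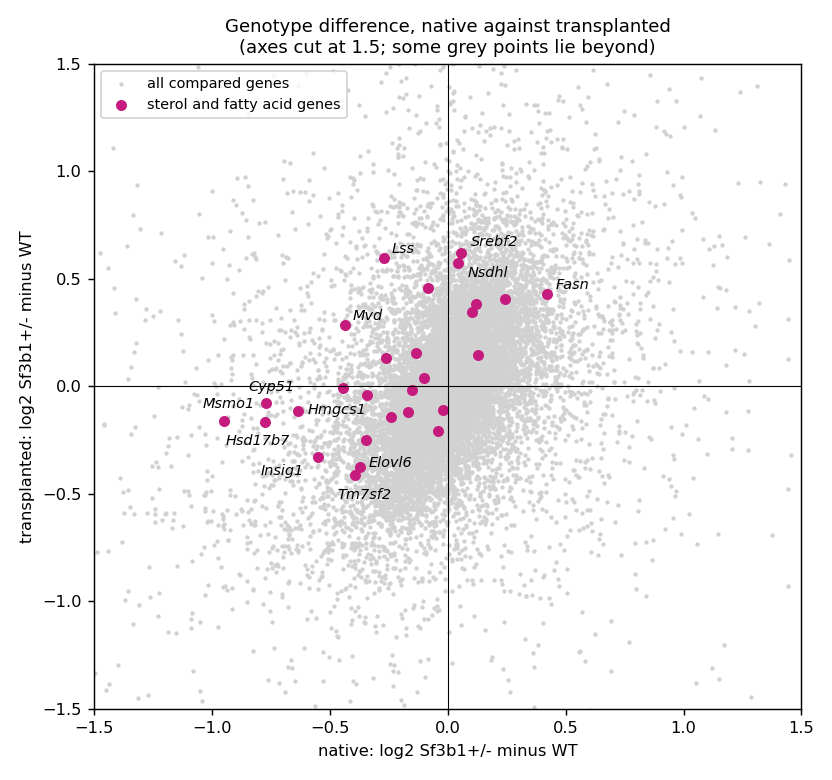
Genotype difference (log2, Sf3b1+/- minus WT) in native cells (horizontal axis) and in transplanted cells (vertical axis) for the 28 genes in magenta and all 13034 compared genes in grey. Msmo1, Cyp51, Hsd17b7 and Hmgcs1 lie far left near the horizontal zero line, Lss and Mvd lie at upper left, and Fasn lies at upper right.

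Tested over both settings in 1 model, no gene of the list passed. In limma's fit, which also held a transplantation term and left 1 residual degree of freedom, 0 of 28 genes had a Benjamini-Hochberg adjusted p under 0.05 for genotype, and 0 of all 13034 genes did (0%). The lowest adjusted p among the 28 was 0.36. At an unadjusted p under 0.05 stood 4 of 28 (14.3%), against 13.6% of all genes, so the share was near the background. They were Fasn (0.42, SE 0.12), Tm7sf2 (-0.40, SE 0.12), Insig1 (-0.44, SE 0.13) and Elovl6 (-0.37, SE 0.12), each with the same sign in both pairs of arrays and a two-sided limma adjusted p of 0.36. The same 4 genes differed by 1.2-fold or more with a shared sign in native and transplanted cells, 3 lower against 7.67% of all genes and 1 higher against 6.8%. The residual of the fit is the difference between these pairs of arrays, so a low p favours genes whose pairs agree. The shared sign and the 1.2-fold differences are therefore not separate evidence.

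The third comparison sets transplanted against native cells of the same genotype. It uses the same arrays as the genotype comparisons, so its values are not separate evidence. In Sf3b1+/- cells the median of the 28 genes was 0.066 against 0.0070 for all genes (0.85 against 0.79 with spike-in scaling), and 10 of 28 lay below 0, against 49.2% of all genes. At least 1.5-fold higher in transplanted than native Sf3b1+/- cells were 4 of 28 (14.3%), where 11.4% of all genes were. They were Lss at 1.79-fold, Mvd at 1.70-fold, Fdps at 1.55-fold and Srebf2 at 1.52-fold. With normexp none of the 28 was 1.5-fold higher, where 5.24% of all genes were. None was at least 1.5-fold lower, where 7.01% of all genes were. In wild-type cells the median was -0.13 against 0.0012 for all genes (0.31 against 0.43 with spike-in scaling), and 20 of 28 lay below 0, against 49.9% of all genes. Hmgcs1 was 1.69-fold lower in transplanted than native wild-type cells, 1 of 28 where 5.74% of all genes were, and none was at least 1.5-fold higher, where 7.95% were.

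After transplantation 10 of 28 genes lay below 0 in both genotypes, against 36% of all genes, and 8 lay above 0 in both, against 36.9%. Above 0 lay Fdps, at 0.63 in Sf3b1+/- and 0.19 in wild-type cells, Insig1 at 0.44 and 0.22, Idi1 at 0.28 and 0.18, and with smaller values in 1 or both genotypes Mvd, Ebp, Dhcr7, Srebf2 and Fasn. Among those below 0, Acaca lay at -0.34 in Sf3b1+/- and -0.39 in wild-type cells, Elovl6 at -0.28 and -0.27, Scap at -0.22 and -0.47, Stard4 at -0.19 and -0.49, and Hmgcs1 at -0.24 and -0.75. With spike-in scaling, under which the median of all genes moved by 0.79 in Sf3b1+/- and 0.43 in wild-type cells, these 5 genes lay above 0 in Sf3b1+/- cells. Second probes of Acaca and Stard4 gave -0.045 and 0.41 in Sf3b1+/- cells. For transplantation, limma called 0 of 28 genes at an adjusted p under 0.05, where 0.583% of all genes were called, and the lowest adjusted p was 0.17. At an unadjusted p under 0.05 stood 2 of 28 (7.14%), against 25.8% of all genes. They were Acaca (-0.37, SE 0.12, limma adjusted p = 0.17) and Hmgcs1 (-0.49, SE 0.18, limma adjusted p = 0.19).

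**Figure D4:**
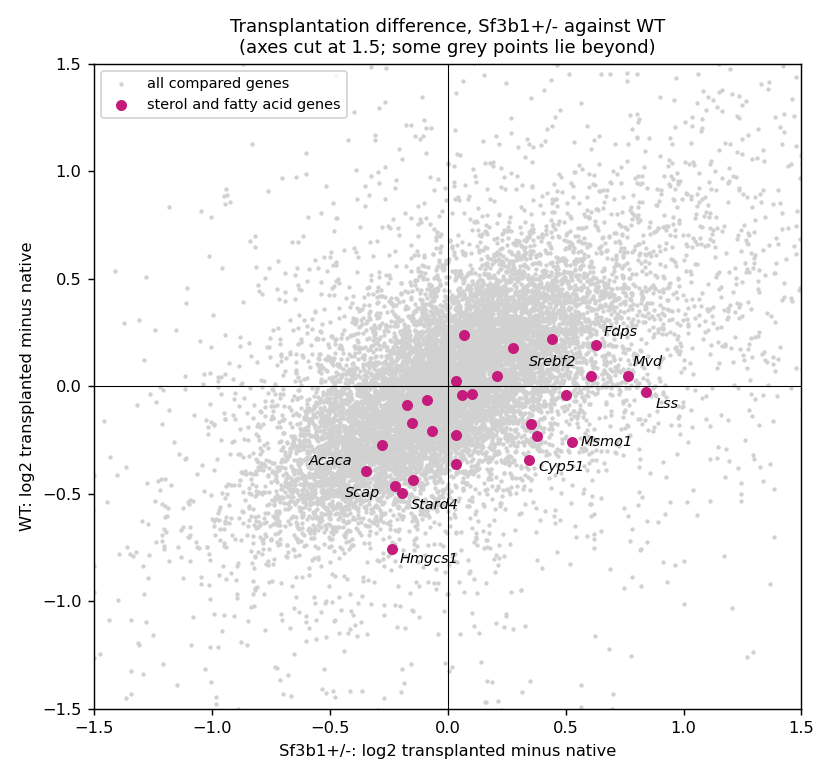
Transplantation difference (log2, transplanted minus native) in Sf3b1+/- cells (horizontal axis) and wild-type cells (vertical axis) for the 28 genes in magenta and all 13034 compared genes in grey. Lss, Mvd, Fdps and Srebf2 lie far right near the horizontal zero line, and Hmgcs1 lies lowest, at -0.75 in wild-type cells.

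In 5 lists of genes around the synthesis routes, the median native genotype differences lay between -0.049 and 0.11. Of 16 genes for sterol intake, storage and export, the median native genotype difference was -0.049, with 1 at least 1.5-fold lower (6.25%, near the 4.7% of all genes) and none higher. That gene was Abca1, the cholesterol exporter, which read 113 units in native Sf3b1+/- against 179 in native wild-type cells, and 106 units in transplanted Sf3b1+/- against 173 in transplanted wild-type cells. Both Sf3b1+/- arrays lay below both wild-type arrays, by 1.63-fold in transplanted and 1.58-fold in native cells, with a limma adjusted p of 0.31, and the transplanted difference was -0.13 under spike-in scaling. With normexp the differences were -0.54 in transplanted and -0.45 in native cells, both short of 1.5-fold. Nr1h3, which encodes the sterol receptor LXR-alpha, read 165 units in transplanted Sf3b1+/- against 52.0 in native Sf3b1+/- cells, and 87.0 units in transplanted wild-type against 50.2 in native wild-type cells. Its log2 difference of 1.67 in Sf3b1+/- and 0.79 in wild-type cells was 0.83 and 0.24 with normexp, which ends the 1.5-fold difference in wild-type cells. The related receptor gene Nr1h2, for LXR-beta, was 1.66-fold and 1.56-fold higher after transplantation in Sf3b1+/- and wild-type cells (limma adjusted p = 0.12 for Nr1h3 and 0.11 for Nr1h2).

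Of 25 other genes of fatty acid synthesis, elongation and desaturation, 22 were compared, with medians of 0.14 in transplanted and 0.055 in native cells. None was 1.5-fold apart in native cells, while 5 (22.7%) were at least 1.5-fold higher in transplanted Sf3b1+/- cells, against 7.79% of all genes, and 1 (4.55%) lower, against 6.43%. Furthest apart by genotype was Fads1, the delta-5 desaturase, with 284 units in native Sf3b1+/- against 243 in native wild-type cells and 535 units in transplanted Sf3b1+/- against 266 in transplanted wild-type cells. Of 14 genes of the isoprenoid branches, which take farnesyl and geranylgeranyl units to proteins, dolichol and ubiquinone, 13 were compared, with medians of 0.18 in transplanted and 0.11 in native cells. Pggt1b, a subunit of an enzyme that attaches isoprenoids to proteins, was furthest apart by genotype, with 159 units in native Sf3b1+/- against 99.4 in native wild-type cells.

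Of 12 genes that process SREBP or degrade enzymes by sterol level, 11 were compared, with medians of -0.032 in transplanted and 0.0051 in native cells and none 1.5-fold apart by genotype. Mbtps2, the protease that frees SREBP from the membrane, was lower after transplantation by 1.63-fold in Sf3b1+/- and 1.59-fold in wild-type cells (limma adjusted p = 0.11), and spike-in scaling turned the Sf3b1+/- difference to 0.078. All 17 fatty acid oxidation genes were compared, with medians of 0.033 in transplanted and -0.00028 in native cells. Slc25a20, the acylcarnitine carrier, was the 1 gene at least 1.5-fold lower in native Sf3b1+/- cells, with 174 units against 267 in native wild-type cells, and read 287 units in transplanted Sf3b1+/- against 221 in transplanted wild-type cells. In limma's fit 0 genes of these 5 lists had an adjusted p under 0.05 for genotype or for transplantation. At an unadjusted p under 0.05 for genotype, where 13.6% of all genes stood, were 1 of 16, 1 of 22, 2 of 13, 0 of 11 and 0 of 17 genes, in the order of the lists above. For transplantation, where 25.8% of all genes stood, they were 8 of 16, 6 of 22, 4 of 13, 5 of 11 and 2 of 17.

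Marker genes of other cells also differed between the genotypes. For comparison, 50.3% of all genes lay below 0 by genotype in native and 49.5% in transplanted cells. At least 1.5-fold lower in transplanted Sf3b1+/- cells were 6.43% of all genes. Of 8 B cell markers 7 were compared, and all 7 were lower in native Sf3b1+/- than native wild-type cells, with a median of -2.01. In transplanted cells 6 of the 7 were lower, 5 at least 1.5-fold, with a median of -0.96. The summed signal of the 8 listed genes was 8332 units in native Sf3b1+/- against 24415 in native wild-type cells, and 4560 units in transplanted Sf3b1+/- against 5219 in transplanted wild-type cells. Cd79b gave 3788 units of the transplanted Sf3b1+/- sum and 3975 of the transplanted wild-type sum, and Pax5 was not well above background on any array. Of 6 macrophage markers 3 were compared, Adgre1, C1qb and Vcam1, and like Lss and Mvd all 3 were higher in transplanted Sf3b1+/- cells, with a median of 0.78, and lower in native Sf3b1+/- cells, with a median of -0.55. Their difference between the settings was 1.07 to 2.19. All 3 had weak signals, from 23.3 to 91.3 units. C1qa and Mrc1, each well above background on 1 array and not compared, lay at 0.58 and -0.21 in native cells. In transplanted cells they lay at 3.12 and 2.34. The summed signal of the 5 macrophage markers with a probe was 306 units in transplanted Sf3b1+/- against 132 in transplanted wild-type cells, and 151 units in native Sf3b1+/- against 213 in native wild-type cells. All 8 megakaryocyte markers were higher in Sf3b1+/- cells in both settings, with summed signals of 41491 units in native Sf3b1+/- against 26522 in native wild-type cells and 62586 units in transplanted Sf3b1+/- against 32641 in transplanted wild-type cells. Of 8 T and NK cell markers 7 were compared, with a median genotype difference of -0.84 in transplanted and -0.39 in native cells. The medians were -0.015 in transplanted and 0.62 in native cells for 6 of 8 erythroid markers, and -0.16 in transplanted and -0.15 in native cells for 10 granulocyte and monocyte markers. For the 8 markers of cycling cells the medians were 0.046 in transplanted and 0.094 in native cells. Of 6 adipocyte markers 4 were not well above background on any array. The part of these cells in the sterol gene differences was not tested, and in bulk RNA fewer cells of a type and less RNA per cell cannot be told apart.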

How the data were processed

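RNA of sorted LSK cells (20 ng per array) was amplified with spike-ins and labelled with Cy3, per the labels' protocols. The deposited intensity values come, per the file headers, from arrays of design 028005 read with Feature Extraction 10.7.1.1 (protocol GE1_107_Sep09, probes on mm9), with background subtraction and detrending within the array. The authors' deposited values of the series also include a ratio per probe, the processed signal over a constant of its array (column medians 0.0747, 0.0816, 0.0745 and 0.0810 for Sf3b1+/- transplanted, wild-type transplanted, Sf3b1+/- native and wild-type native cells), correlating with the scanner's log2 signal at r of 1; values are not centred, higher means more signal, and the sources used here do not name the tool. The deposited flag columns, with no unit other than 0 or 1, gave the calls of well above background.

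Replicate spots were averaged as log2 values, leaving out outlier flags. Each array was shifted by its 75th percentile over probes well above background on all 4 arrays, because fewer than 50% of spots were detected on average (49.5%). Of 55681 probes 27509 matched 1 symbol through RefSeq names (GRCm38.p6, names only). Genes well above background on at least 2 arrays were compared. limma 3.58.1 in R 4.3.3, with the data.table package (version 1.17.8), fitted genotype and transplantation on all compared genes (prior of 3.05 degrees of freedom), and the fit was tested on simulated data. The labels do not say that arrays hold separate mice. In each gene the 1 residual degree of freedom is the genotype-by-setting difference, which limma combines with the prior. The p-values thus set each term against that combined value, and not against spread between replicate arrays or mice. All 4 arrays shared a slide and a scan time, so slide and scan are no separate batches, and preparation batches cannot be told apart from groups. Alternatives were all-probe percentile, quantile, spike-in (8 probes) and normexp (offset 50) scaling, the series table, the median over probes, and genes detected on all 4 arrays. The scanner files here hold no mean signal, so normexp used the median signal, in place of the planned mean signal. Genes were named if at least 1.5-fold apart in any pair of groups, if they were regulators or first enzymes, and otherwise as members of the list. In related lists those at least 1.5-fold apart the same way in both pairs were named, otherwise the furthest apart, read as furthest apart by genotype. The members and lists were chosen with earlier results of these data known.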

Additional observations from a re-analysis of the deposited data

Results flagged for a closer look

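With 1 array per group, the genes below differed at least 1.2-fold in opposite directions in the arrays compared, and the difference between the arms was not tested. The genotype difference of Mvd was 0.284 on the log2 scale in transplanted cells and -0.434 in native cells. Lss was at 0.597 in transplanted and -0.27 in native cells. With normexp the transplanted differences of Mvd and Lss were 0.17 and 0.24, and with spike-in scaling the native ones were -0.21 and -0.049. Each of these falls short of 1.2-fold. Cyp51 after transplantation was at 0.345 in Sf3b1+/- cells and -0.345 in wild-type cells. Spike-in scaling put both above 0, at 1.13 in Sf3b1+/- and 0.088 in wild-type cells. Slc25a20, from the fatty acid oxidation list, was at 0.38 by genotype in transplanted and -0.622 in native cells, and after transplantation at 0.726 in Sf3b1+/- cells and -0.276 in wild-type cells.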

How the results depend on the processing

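No paired analysis was possible because each group has 1 array and the groups share a single replicate number, and leaving out a replicate would leave a group empty. The medians of the 28 genes moved by less than 0.11, the spread of a difference between replicate spots, under every alternative but spike-in scaling. With spike-in scaling the medians were 0.56 and 0.017 for genotype in transplanted and native cells, 0.85 and 0.31 for transplantation in Sf3b1+/- and wild-type cells, and 0.61 for the genotype-by-setting difference, a contrast chosen, like the 1.2-fold counts, after seeing the data. Relative to all genes these medians were -0.017, -0.20, 0.059, -0.13 and 0.25. With spike-in scaling 1 gene was at least 1.5-fold higher and 1 lower by genotype in native cells (main 0 and 4), 13 higher in transplanted cells (2; 49.6% of all genes), 24 and 4 higher after transplantation in Sf3b1+/- and wild-type cells (4 and 0; 70.5% and 34.5% of all genes), 0 lower in wild-type cells (1), 15 above 0 in the genotype-by-setting difference (5; 24.6%), and limma called 11 genes, 39.3% of the 28, for transplantation (0), against 41.9% of all genes. That shift is of all genes, by the scaling's construction. With normexp the counts by genotype were 2 lower in native cells (1.63% of all genes) and 0 higher in transplanted cells (3.01%). They were 0 higher after transplantation in Sf3b1+/- cells (5.24%) and 2 above 0 in the genotype-by-setting difference (3.26%). The cause was not tested. Of 784 values of single genes under the alternatives 636 moved by less than 0.11 and 148 by more, 112 of these with spike-in scaling, and no difference of at least 1.5-fold changed direction. Across all genes limma called 0 to 571 for genotype and 0 to 5465 for transplantation, the highest with spike-in scaling. Lss, Fasn, Srebf1 and Hsd17b7 had weak signals, which limits their differences. The same limit holds for Mvd, Nsdhl and Acat2, which read 151 to 279 units. With normexp the transplantation difference of Mvd in Sf3b1+/- cells went from 0.76 to 0.45.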
